A study of Mus musculus with 6 samples.

Results

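The genes described here encode structural proteins of the basement membrane, the thin sheet of matrix that underlies epithelia and endothelia and wraps muscle, fat and nerve cells. They are 10 genes: the type IV collagen chains Col4a1 and Col4a2, the multiplexin collagens Col15a1 and Col18a1, the laminin chains Lama4, Lamb1 and Lamc1, the nidogens Nid1 and Nid2, and the perlecan gene Hspg2. Each was represented by every probe set that the platform annotation assigns to that gene alone, which gave 20 probe sets, 18 on the MOE430A array and 2 on the MOE430B array, for 10 of 18194 measured genes. The cells were 10T1/2, a mouse embryonic fibroblast line grown in DMEM with 10% fetal bovine serum and harvested at 80% confluency. The labels number its 3 RNA samples 1, 4 and 5, and each went on 1 array of either design. All samples share this treatment and form 1 group without a control, and the labels give neither a genotype, nor a strain, nor whether each sample came from its own culture, and the spread may thus be technical only. The stated use of these profiles was to find genes that fibroblasts share with stem cells, so that they can be subtracted from stem cell profiles.

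A basement membrane is built from a laminin network and a type IV collagen network. A laminin is a trimer of an alpha, a beta and a gamma chain and polymerises at the cell surface, while type IV collagen forms triple helices that are cross-linked into a stable sheet. Nidogens and perlecan bridge the networks, and perlecan also carries heparan sulfate chains that bind growth factors. Fibroblasts are better known for interstitial, fibrillar collagen, but they also make nidogens, type IV collagen and laminin chains that are laid down beside epithelial and muscle cells.

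A signal is the intensity that the MAS5 software computes for a probe set, in arbitrary units on a linear scale. A probe set was called detected when its signal was above a background limit on 3 of 3 arrays of its design. The limit was the 95th percentile of the signals of probe sets for genes of tissues far from fibroblasts, and it was 1279, 1365 and 961 in samples 1, 4 and 5 on MOE430A and 3488, 2826 and 2820 on MOE430B. On MOE430B it rests on 17 probe sets, against 129 on MOE430A. The 3' to 5' signal ratio of Gapdh, a measure of how far the labelled target reaches towards the start of a transcript, was 24.7, 15.0 and 10.6 in samples 1, 4 and 5 on MOE430A. The bacterial hybridisation controls, which are normally added in a fixed amount, had a geometric mean of 17767, 15077 and 9777 over 9 probe sets in the same samples. Among fibroblast markers 6 of 11 measured genes were detected, among them Vim and Pdgfra, while Thy1 passed in samples 1 and 4 only. Dcn passed in samples 1 and 5 only and read 1327 in sample 4, just under the limit. With 1 group and 3 samples, no difference described below could be tested, and folds are given as descriptions of these samples.

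Of the 10 genes, 6 were detected, namely Col4a1, Col4a2, Col18a1, Lamb1, Nid1 and Hspg2. Lama4, Lamc1, Nid2 and Col15a1 were not. Over all measured genes 27.0% were detected, and this share was 15.0% of genes with 1 probe set, 31.2% with 2, 42.1% with 3 and 49.2% with 4. Of the members, 3 had 1 probe set (1 detected) and 7 had more (5 detected). On MOE430A, 7 of 18 member probe sets were detected, where 23.2% of all probe sets naming 1 gene were. A further 4 were above the limit on 1 or 2 arrays, a class that held 15.7% of all such probe sets, and 7 were above it on none. On MOE430B 0 of 2 were detected, against 12.2% of all. Both probe sets of Col4a1 and the only one of Col4a2 were detected, and these were the 2 genes with every probe set detected. When more than 1 in 2 of a gene's probe sets had to be detected, those 2 genes alone of the 10 met the rule, which 12.1% of all genes met.

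**Figure D1:**
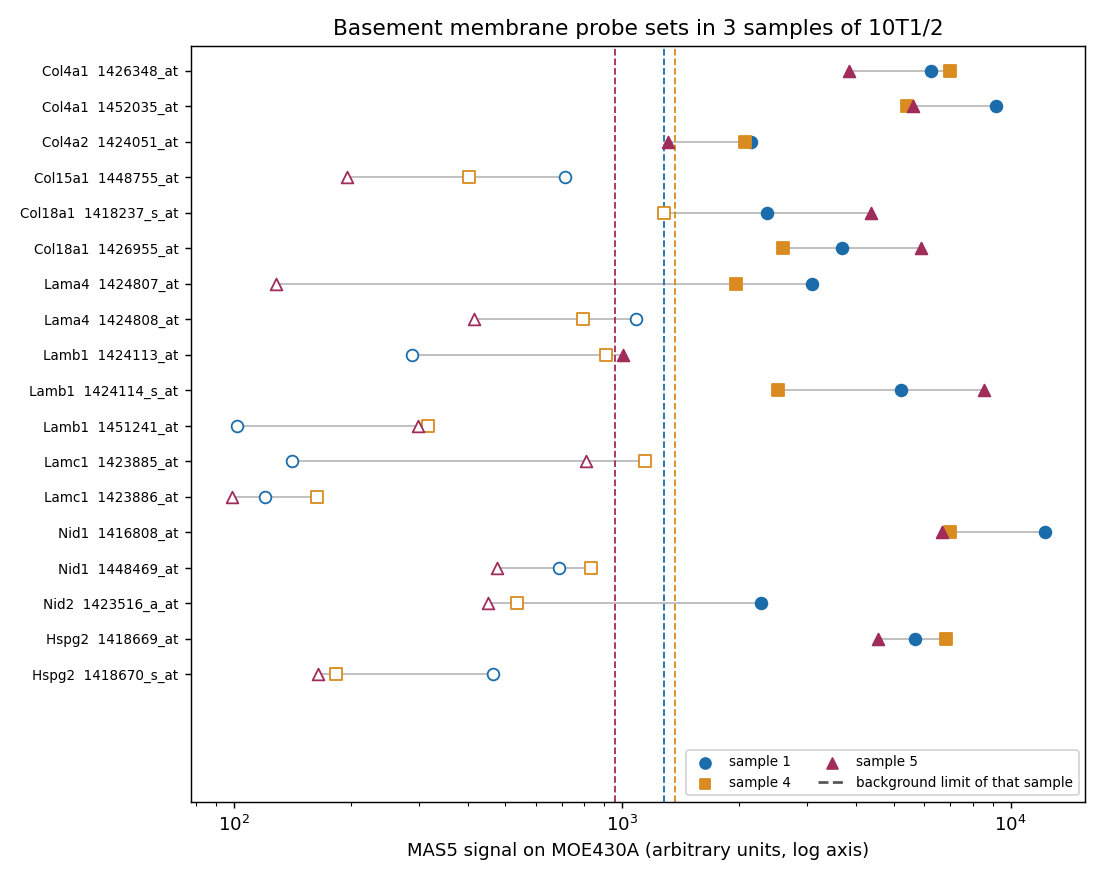
Signals of the 18 member probe sets on MOE430A in samples 1 (circles), 4 (squares) and 5 (triangles), on a log axis in arbitrary units, with the background limit of each sample as a dashed line. Filled symbols are above that sample's limit and open ones are not; the probe set 1424807_at of Lama4 runs from 3084 in sample 1 to 129 in sample 5.

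The genes of the type IV collagen network were above the limit throughout. Col4a1 and Col4a2 encode the chains that combine into the type IV collagen found in nearly all basement membranes. The Col4a1 probe set 1452035_at read 9163, 5398 and 5596 in samples 1, 4 and 5. Its other probe set, 1426348_at, read 6237, 6995 and 3832. Sample 1 stood apart as high by the first and sample 5 as low by the second, so the 2 probe sets agree that sample 5 is below sample 1 and differ on where sample 4 lies. Col4a2 read 2140, 2071 and 1313, or 1841 ± 459 (SD, n = 3), and was 1.37 to 1.67 times the limit. For Col4a2, samples 1 and 4 were close and sample 5 was 1.63-fold below sample 1, in the pattern of 1426348_at. The log2 signal of sample 5 minus the mean of samples 1 and 4 was -0.68 for Col4a2, -0.79 for 1426348_at and -0.33 for 1452035_at.

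Likeness of profile was measured as the largest difference, over the 3 samples, between log2 signals centred on each gene's mean. By this measure Col4a2 ranked 1537 among 4549 genes for likeness to 1452035_at, the brighter Col4a1 probe set, with a difference of 0.47. Against 1426348_at, a reference chosen after its values were seen, it ranked 140, with a difference of 0.14. Nid1 ranked 58 for likeness to 1452035_at, with a difference of 0.09, and 2210 for likeness to 1426348_at, with a difference of 0.59. The 3 genes most like 1452035_at were Rps29, Rnd3 and Ahcyl2. With 3 samples many genes share any given profile, so these ranks are a description only.

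Col4a1 and Col4a2 lie head to head and share a start region, which is shown because these are the members with every probe set detected. In RefSeq (build GRCm38.p6) the window from 250 bases before to 50 bases after the start of Col4a1 is chr8:11312777-11313076 on the minus strand, and that of Col4a2 is chr8:11312555-11312854 on the plus strand. The annotated starts overlap, with 22 bases lying in both transcripts. The windows share 78 bases, printed in capitals, which read as reverse complements of each other in the 2 lines.
Col4a1: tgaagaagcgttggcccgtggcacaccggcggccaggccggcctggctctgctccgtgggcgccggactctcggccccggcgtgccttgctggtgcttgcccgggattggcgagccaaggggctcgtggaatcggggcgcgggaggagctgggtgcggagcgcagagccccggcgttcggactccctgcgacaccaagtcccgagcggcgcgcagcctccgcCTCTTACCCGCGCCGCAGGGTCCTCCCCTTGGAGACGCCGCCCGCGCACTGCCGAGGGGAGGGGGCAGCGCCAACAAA
Col4a2: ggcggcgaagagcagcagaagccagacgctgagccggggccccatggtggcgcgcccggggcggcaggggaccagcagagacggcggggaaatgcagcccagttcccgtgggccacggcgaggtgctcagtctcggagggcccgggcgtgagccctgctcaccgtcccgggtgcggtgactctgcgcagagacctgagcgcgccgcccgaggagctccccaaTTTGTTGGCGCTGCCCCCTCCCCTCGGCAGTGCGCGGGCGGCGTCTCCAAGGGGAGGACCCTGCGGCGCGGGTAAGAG
The base composition of the windows was 74.0% and 73.7% G and C, where the median of 32851 promoters was 52.7%. No build is named in the intensity tables, and these coordinates place the reference sequence and not the probe sets.

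Col18a1 and Col15a1 encode the multiplexin collagens, which carry heparan or chondroitin sulfate chains and end in endostatin-type domains. They differed in detection. Col18a1 read 3682, 2600 and 5872 in samples 1, 4 and 5 by the probe set 1426955_at and 2358, 1285 and 4378 by 1418237_s_at. Sample 5 was the high one and sample 4 the low one by both, and sample 5 exceeded sample 4 by 2.26-fold and 3.41-fold. The second of these probe sets missed detection because sample 4 was just below its limit, at 0.941 of it, and its name ending marks it as able to match several transcripts. Col15a1 read 713, 402 and 196 from its only probe set, below the limit in every sample, with sample 1 highest and sample 5 lowest.

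Laminin chains showed large differences between probe sets and samples. Lama4, the alpha chain of laminins in vessels, muscle, fat and nerve, read 3084, 1961 and 129 in samples 1, 4 and 5 by 1424807_at. It was above the limit in samples 1 and 4, at 2.41 and 1.44 times it, and far below in sample 5, at 0.134 of it. Of all MOE430A probe sets naming 1 gene, 0.971% were above the limit in samples 1 and 4 and not in sample 5. The other Lama4 probe set, 1424808_at, read 1085, 793 and 414, below the limit in every sample and in the same order. With sample 5 raised to its limit, the log2 signal of 1424807_at there minus the mean of the other samples was -1.36, where the signals as deposited gave -4.26.

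Lamb1, a beta chain of most embryonic laminins, was detected by 1 of its 4 probe sets. That probe set, 1424114_s_at, read 5222, 2512 and 8558 in samples 1, 4 and 5, with sample 5 high and sample 4 low. Its highest sample exceeded its lowest by 3.41-fold, and its name ending marks it as able to match several transcripts. On the same design 1424113_at read 288, 910 and 1005 and 1451241_at read 102, 317 and 299. In both of these sample 1, not sample 4, was the low one. On MOE430B the probe set 1446180_at read 1149, 872 and 829, or 0.294 to 0.329 of the limit. The call of Lamb1 thus rests on a single probe set and ended when probe sets of that name ending were left out.

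Lamc1 encodes the gamma chain that most laminins contain, and it was not detected. It read 141, 1143 and 807 in samples 1, 4 and 5 by 1423885_at, with sample 1 low and samples 4 and 5 at 0.837 and 0.840 of the limit. Its other probe set, 1423886_at, read 121, 164 and 98.9 and was at 0.0943 to 0.120 of the limit. The low reading of sample 1 in 1423885_at, 1424113_at and 1451241_at ran in the same direction as that of the 5' probe set of Gapdh, which read 1907, 5872 and 7329 in samples 1, 4 and 5. The 3' probe set of Gapdh was also lowest in sample 1, with 47095, 88242 and 77664. The other probe sets of Lamb1 and Lamc1 were not lowest in sample 1, and where each lies in its transcript is not known here. The part of target length in these laminin readings was not tested.

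Windows of RefSeq around annotated starts are shown for Col18a1 and Lamb1, the 2 members that by their brightest probe set were high in sample 5 and low in sample 4. They are chr10:77166481-77166780 on the minus strand for Col18a1, at the upstream of its 2 annotated starts, and chr12:31265043-31265342 on the plus strand for Lamb1. Capitals mark matches to the GC box GGGCGG and the CCAAT box CCAAT on either strand.
Col18a1: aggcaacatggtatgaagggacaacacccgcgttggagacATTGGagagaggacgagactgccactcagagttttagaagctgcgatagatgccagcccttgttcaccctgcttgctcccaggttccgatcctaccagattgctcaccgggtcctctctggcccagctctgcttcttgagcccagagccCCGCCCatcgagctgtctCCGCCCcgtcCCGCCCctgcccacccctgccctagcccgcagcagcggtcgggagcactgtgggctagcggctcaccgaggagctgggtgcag
Lamb1: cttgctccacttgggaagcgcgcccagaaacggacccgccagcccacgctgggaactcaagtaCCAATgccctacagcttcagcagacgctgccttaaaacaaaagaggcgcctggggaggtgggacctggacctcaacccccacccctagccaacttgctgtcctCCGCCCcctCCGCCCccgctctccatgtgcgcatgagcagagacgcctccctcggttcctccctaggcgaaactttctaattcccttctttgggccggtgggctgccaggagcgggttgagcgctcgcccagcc
The Col18a1 window held 3 GC boxes and the Lamb1 window 2, and each held 1 CCAAT box. Of the members, 7 had an entry, with 8 windows in all. A GC box lay in 6 of these, of Col4a1, Col4a2, Col18a1, Lamb1, Nid1 and Hspg2, and in 35.7% of all promoters of the table, and Hspg2 held 5. A CCAAT box lay in 5, of Col4a1, Col4a2, Col18a1, Lamb1 and Nid1, and in 37.4% of all promoters. The window at the other annotated start of Col18a1 held 0 GC boxes and 0 CCAAT boxes. Both boxes thus also lay in windows of members with other orders of the samples, and a link between boxes and signals was not tested. The TATA box TATAAA lay in 0 of 8 on either strand and in 13.6% of all promoters. The windows of Col4a1 and Col4a2 overlap, so a box in the shared stretch counts in both. Lama4, Lamc1 and Nid2 have no window here.

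The nidogens link laminin to type IV collagen, and they differed in detection. Nid1 read 12252.5, 6968 and 6664 in samples 1, 4 and 5 by 1416808_at, at 5.10 to 9.58 times the limit, with sample 1 high and samples 4 and 5 close to each other. Its second probe set on the same design, 1448469_at, read 689, 834 and 475 and was below the limit in every sample. On MOE430B 1441519_at read 79.4, 61.0 and 996, below the limit of that design in every sample, with sample 5 high. Nid2, the second nidogen, read 2279, 537 and 452 from its only probe set. It was above the limit in sample 1, at 1.78 times it, and below in samples 4 and 5. Of all MOE430A probe sets naming 1 gene, 1.89% were above the limit in sample 1 alone. By these brightest probe sets both nidogens were highest in sample 1, by 1.84-fold over the lowest sample for Nid1, while for Nid2 the other samples were not above the limit.

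Hspg2 encodes perlecan, the large heparan sulfate proteoglycan of basement membranes. It read 5663, 6828 and 4553 in samples 1, 4 and 5 by 1418669_at, or 5682 ± 1138 (SD, n = 3), at 4.43 to 5.00 times the limit. This was the narrowest range of any detected member probe set, 1.5-fold. The other probe set, 1418670_s_at, read 465, 184 and 165, below the limit in every sample and with sample 1 high.

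The samples were then compared over the members whose mean log2 signal over the 3 arrays was above that of the limit, each by its brightest probe set. These were the same 6 genes that were detected, among 4550 genes that passed. By these probe sets they did not share an order of the samples. Of 7 members with more than 1 MOE430A probe set, detected or not, 2 kept the same order in all of them. Some neighbours in an order were also close. Samples 1 and 4 were 1.03-fold apart for Col4a2, and samples 4 and 5 were 1.04-fold apart for Col4a1 and 1.05-fold for Nid1. The orders that follow thus describe single probe sets. Sample 1 was highest for Col4a1, Col4a2 and Nid1, where 35.8% of the 4550 genes were highest in sample 1. Sample 4 was highest for Hspg2 (29.8% of all), and sample 5 for Col18a1 and Lamb1 (34.4%). Sample 5 was lowest for Col4a2, Nid1 and Hspg2 (40.5% of all) and sample 4 for the other 3 (25.2%). The highest sample exceeded the lowest by at least 2-fold in 2 of 6 members, Col18a1 and Lamb1, and in 29.2% of all genes.

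**Figure D2:**
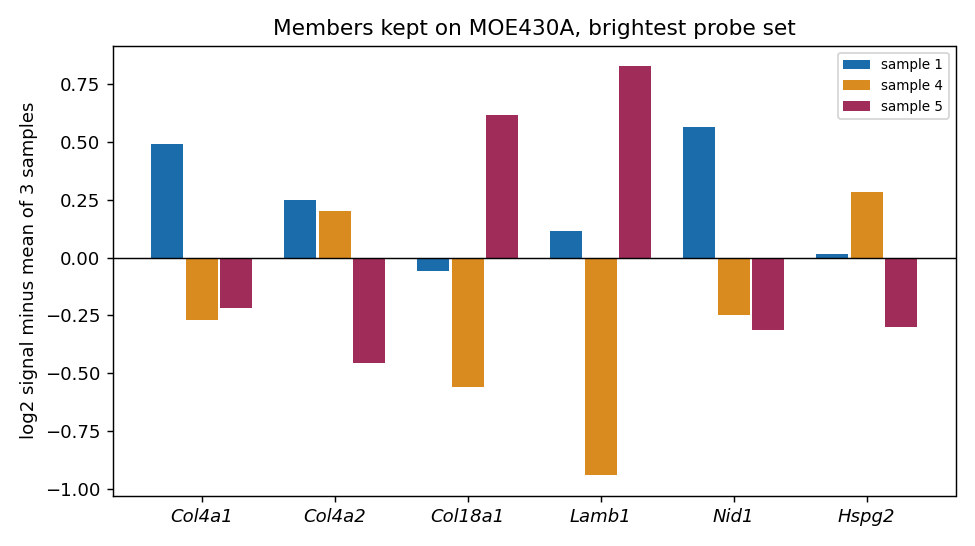
Log2 signal of each sample minus the mean of the 3 samples for the 6 members kept on MOE430A, by their brightest probe set; each bar is 1 array, so there is no error bar. Sample 5 is the highest bar for Col18a1 and Lamb1 and below 0 for the other 4 members.

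The log2 signal of sample 5 minus the mean of samples 1 and 4 had a median of -0.39 over the 6 members, a 1.31-fold lower reading, and of -0.04 over all 4550 genes. It was -0.33 for Col4a1, -0.68 for Col4a2, -0.47 for Nid1 and -0.45 for Hspg2. It was 0.92 for Col18a1 and 1.24 for Lamb1. Lamb1 was thus past 2-fold upwards, as were 7.71% of all genes, and 0 of 6 were past 2-fold downwards, as were 8.00%. The like median was 0.27 for sample 1 and -0.39 for sample 4, against 0.02 and 0.03 over all genes. Lamb1 was past 2-fold downwards in sample 4, at -1.41, as were 2.75% of all genes, and 0 of 6 were past it upwards (3.03% of all). In sample 1 0 of 6 were past 2-fold in either direction, where 6.33% of all genes were upwards and 6.99% downwards. Without sample 1 the median difference between samples 4 and 5 was 0.01. The 4 genes that did not pass had no part in these medians. Where signals under the limit were set to it, genes above it on any array were taken in. Lama4 thus entered through samples 1 and 4 and Nid2 through sample 1, where they were high. Lama4 was then at -1.36 in sample 5, where its signal was the limit itself. Nid2 stood at the limits, 1365 and 961, in samples 4 and 5, so its difference there reflects the limits and is not given. Col15a1 and Lamc1 were below the limit in every sample, and no difference is given for them. With no filter, sample 5 was lowest in 6 of 10 members, among them Col15a1 with every signal under the limit. The share of all genes without the filter is not given, so this count has no comparison. Of the 18 probe sets on MOE430A, 11 were lowest in sample 5 and 8 highest in sample 1, where 40.1% and 38.3% of all probe sets naming 1 gene were.

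The hybridisation controls were also lower in sample 5, and when each array was divided by their geometric mean, a scaling chosen after seeing the data, the median of sample 5 was 0.35 over the members and 0.70 over all genes. Relative to all genes, the members' median was -0.35 in either case. Dividing an array by a constant shifts all its genes alike, so this value could not change. Col4a1, Col4a2, Nid1 and Hspg2 then read above the mean of samples 1 and 4 in sample 5, by 0.41, 0.06, 0.27 and 0.29. The MOE430A array of sample 5 was also run on fluidics station 2 and those of samples 1 and 4 on station 1, which cannot be told apart from the sample. On MOE430B all 3 arrays were run on station 1, and the controls had a geometric mean of 48410.5, 59746 and 31935 in samples 1, 4 and 5, again lowest in sample 5. Neither member probe set on MOE430B was above the limit.

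**Figure D3:**
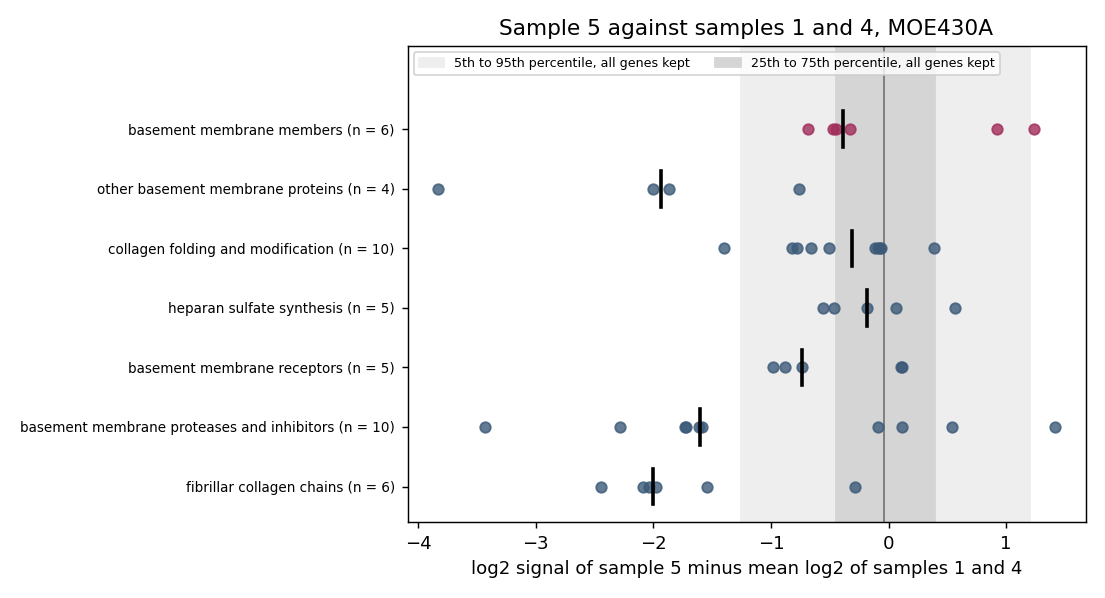
Log2 signal of sample 5 minus the mean of samples 1 and 4 on MOE430A for the genes kept in each list, 1 point per gene by its brightest probe set, with the list's median as a black bar. The shaded bands hold the central 50% and 90% of all 4550 genes; the 6 basement membrane members (median -0.39) lie within the wider band or just past its upper edge, and the 6 fibrillar collagen chains have a median of -2.01.

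Other matrix genes give the setting for these differences. The fibrillar collagen chains, the rods of interstitial matrix, had a median of -2.01 in sample 5 over 6 genes, 6 of 6 lower and 5 of 6 past 2-fold, where 8.00% of all genes were. Whether the basement membrane genes differ from them was not tested. Other basement membrane proteins had a median of -1.94 over the 4 genes kept on MOE430A. These are not the same 4 genes that were detected, as they include a gene above the limit in samples 1 and 4 only. Sparc, a matricellular protein that binds type IV collagen, read 17632.5, 25751 and 5319 in samples 1, 4 and 5. Fbln2, which binds nidogen and laminin, read 3305, 6532 and 2747. Sample 5 was lowest for both, at -2.00 for Sparc and -0.76 for Fbln2 on the log2 scale against the other samples. For Fbln2 sample 4 stood apart as high, at 1.12, and samples 1 and 5 were closer to each other. Pxdn, the peroxidase that cross-links type IV collagen, read 28326, 24984 and 20086 on MOE430B and was detected. In this list 4 of 15 measured genes were detected, and Agrn and Fbln1 were not.

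None of the other chains of the 2 networks was detected. Of 4 other type IV collagen chains 0 were detected, with Col4a3 at 389, 765 and 328 and Col4a4 at 252, 940 and 397 in samples 1, 4 and 5. Of 8 other laminin and netrin chains 0 were detected, with Lama1 at 17.0, 14.3 and 14.8 and Lama2 at 373, 247 and 66.6. No alpha chain of laminin was thus above the limit in all samples, and Lama4 was the alpha chain above it in 2. Lama5 read 946, 1705 and 842.5 by its brightest probe set, above the limit in sample 4 only.

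Genes of collagen folding, modification and export, which encode enzymes, their subunits, a chaperone and a cargo receptor, were mostly detected, 10 of 11 against 27.0% of all genes. P4hb, the beta subunit of prolyl hydroxylase, read 32314, 41583 and 34962, and its partners P4ha1 and P4ha2 were detected too. The median of this list in sample 5 was -0.31 over 10 genes, with 9 of 10 lower and 1 past 2-fold. Of the genes of heparan sulfate synthesis, which build the side chains of perlecan, 4 of 9 were detected, among them Ext2 and Extl3. Of basement membrane receptors 4 of 11 were detected. Dag1, the dystroglycan gene whose product binds laminin and perlecan, read 7795, 6360 and 4239, and the integrin gene Itga3 read 1379, 1719 and 1659. Itgb1, the shared beta chain of laminin-binding integrins, missed detection in sample 1 at 1049, with 2751 and 1837 in samples 4 and 5.

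Proteases of the basement membrane and their inhibitors had 10 of 13 genes detected. Mmp2, a gelatinase that cleaves type IV collagen, read 33971, 9627 and 5442 in samples 1, 4 and 5. Its activator Mmp14 read 20299, 12825 and 5364, and Adamts1 read 41635, 13960.4 and 4960. All 3 followed the same order, high in sample 1 and low in sample 5. The list had a median of -1.60 in sample 5 over 10 genes, with 6 past 2-fold downwards and 1 upwards.

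**Figure D4:**
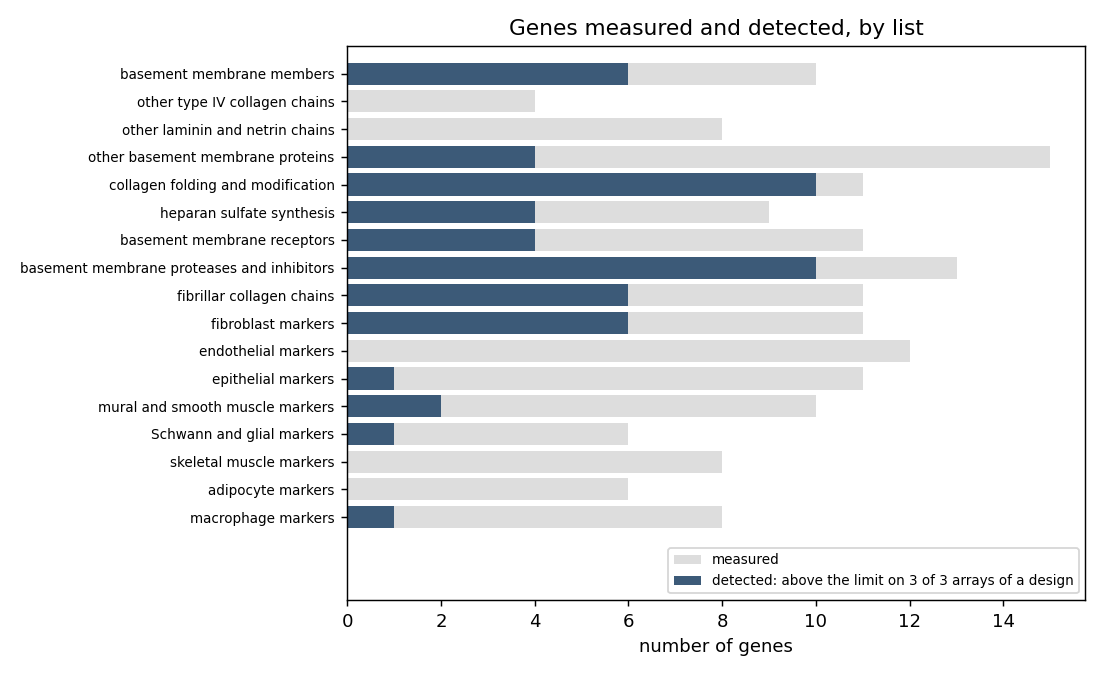
Number of genes measured (grey) and detected (blue), that is above the limit on 3 of 3 arrays of a design, in each list. The basement membrane members have 6 of 10 detected, collagen folding and modification 10 of 11 and endothelial markers 0 of 12.

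Cells that make much basement membrane were looked for by their markers. Endothelial markers had 0 of 12 genes detected, and the sum of their brightest MOE430A signals was 5835, 5273 and 3637 in samples 1, 4 and 5. Epithelial markers had 1 of 11, Epcam by a MOE430B probe set that can match several transcripts, and a sum of 2843, 2557 and 2739. That Epcam probe set read 31382, 139544 and 29693 and is not in the sum, which covers MOE430A only. Mural and smooth muscle markers had 2 of 10 and a sum of 76365, 87751 and 8927, most of it from Acta2, which read 69179, 81188 and 4604. Its probe set can match several transcripts, and of 3 Acta2 probe sets 1 was detected. The sum of the mural and smooth muscle markers was low in sample 5. Of the members kept, Col4a2, Nid1 and Hspg2 were also lowest in sample 5, by far smaller folds. Col18a1 and Lamb1 were highest there, and Col4a1 was lowest in sample 4. The sum of the fibroblast markers was 160924, 244918 and 137008, and their median in sample 5 was -0.71 over 9 genes, with 7 of 9 lower and 4 past 2-fold. The part of either marker list in the members' readings was not tested. Schwann and glial markers had 1 of 6 detected, skeletal muscle markers 0 of 8, adipocyte markers 0 of 6 and macrophage markers 1 of 8. In these bulk samples fewer cells of a type and less RNA per cell cannot be told apart.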

How the data were processed

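The authors deposited linear MAS5 signal intensities, 1 for each probe set on each array; MAS5 is named in the submitters' processing notes, without a version or settings. After trimming 2% at each end, the mean of every deposited MOE430A array was 1501 and of every MOE430B array 1500, so each was scaled on its own, and the designs were kept apart. Run settings, per the file headers, served to check chip type and sample number and to read the fluidics station. Depth has no meaning for arrays, and their number limits the precision. The number of columns with per-sample values not used was 0.

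Symbols came from the platform annotation, updated through RefSeq gene identifiers (GRCm38.p6): 20393 of 22690 MOE430A and 14674 of 22575 MOE430B probe sets named 1 gene, of which 20364 and 14499 matched. Background genes were 116, of which 106 were measured and 4 detected (Apoh, Hcrt, Lor and Oxt). Signals were set to at least 1 before log2. No test was possible with 1 group; computations used Python 3.11.15, numpy 2.4.6 and pandas 2.3.3 and were tested on simulated data. Promoters are from RefSeq.

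Members and lists were chosen with earlier results of these data known. Named were all members, from other lists the first 3 genes kept or detected and the first 2 not detected, as far as used, and the 3 genes most like Col4a1 in profile. The alternatives tried concern the limit, the call rule, scaling, pseudocounts, filters, probe set choice and leaving out each sample.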

Additional observations from a re-analysis of the deposited data

How the results depend on the processing

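The number of members detected stayed between 5 and 7 at the 90th and 99th percentile limits, on 2 of 3 arrays, after quantile normalisation and when probe sets of ambiguous target were dropped, and between 6 and 7 with each sample left out. It was 2 where a call needed more than 1 in 2 of the gene's probe sets. Detected MOE430A member probe sets ranged from 6 to 9 under the same settings, and from 7 to 8 with each sample left out. On MOE430B they stayed at 0 in all of these.

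The members' median in sample 1, 0.27 on the log2 scale, was 0.56 both with no filter and with signals floored at the limit, and -0.28 after division by the hybridisation controls, chosen after seeing the data. It was 0.17 with each array divided by its median. That of sample 4, -0.39, was -0.13 with no filter, -0.16 with the mean of a gene's kept probe sets and -0.25 with signals floored at the limit. That of sample 5, -0.39, was 0.35 after division by the hybridisation controls, a scaling that moved the median of all genes to -0.53, -0.16 and 0.70 in samples 1, 4 and 5. The number of members lowest in sample 5, 3 of 6, was 6 of 10 with no filter, 5 of 8 with signals floored there, 4 of 6 with the probe set mean, 2 of 6 with median scaling and 0 of 6 after division by the controls. Shares of all genes are not given for these alternatives. With signals floored, Lama4 and Nid2 entered through samples where they were high. Nid2 was then lowest in sample 5 because that sample has the lowest limit. With a sample left out, the medians ran from 0.51 to 0.65 in sample 1, from -0.65 to 0.00623 in sample 4 and from -0.51 to -0.00623 in sample 5, and the number lowest in sample 5 from 3 to 4. The values 0.65 and -0.65, without sample 5, are over 7 members and not the same 6. Lama4 entered there through samples 1 and 4, where it was high. Lamb1 and Col18a1 were higher in sample 5 under all alternatives run, except that Lamb1 was not kept once probe sets of ambiguous target were dropped. No paired analysis was possible because the 3 samples form 1 group and no result comes from a test. The MOE430B limit, set by 17 probe sets, is the least certain.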
